A study of Rattus norvegicus with 36 samples.

Results

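The genes described here are the rat glucocorticoid receptor gene Nr3c1 and 3 genes of glucocorticoid supply and response, Hsd11b1, Sgk1 and Glul. They were measured in skeletal muscle after one bout of resisted contractions. Every probe set of the array that the platform annotation assigns to one of these 4 genes was taken, which gave 9 of the 8740 probe sets that are not controls. Nr3c1 has 3 of them, Hsd11b1 has 1, Sgk1 has 1 and Glul has 4. A probe set is a group of oligonucleotides on the array that together report on a transcript.

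Glucocorticoids, corticosterone in the rat, act through the receptor encoded by Nr3c1. Hormone binding frees the receptor from a chaperone complex, and the receptor then enters the nucleus and switches target genes on or off. In muscle the hormone is known for promoting protein breakdown and the release of amino acids. The enzyme 11-beta-hydroxysteroid dehydrogenase type 1 (Hsd11b1) regenerates active hormone from its inactive keto form inside the cell. Sgk1, a kinase related to AKT, and Glul, glutamine synthetase, which makes the glutamine that muscle exports, are textbook targets of the receptor.

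The study placed RNA on 36 one-colour arrays in 6 groups. RNA bound to polyribosomes (polysomal RNA, from messages that carry several ribosomes) came from muscle 6 h after contractions (8 arrays) and 1 h after contractions (4 arrays), and total RNA came from exercised muscle at 6 h (8 arrays) and 1 h (4 arrays). A further 4 arrays of muscle whose labels name no contractions carry 1hr polysome in their titles but no mention of polysomes in their description; below they are the control titled 1hr polysome. The last 8 arrays, of muscle with no contractions named and with polysomes in both title and description, are called the polysomal control. Arrays come in pairs that share a number, so a group holds 4 numbers or 2, and the mean of a pair is 1 replicate here. The labels give the muscle as ta, the descriptions of both controls give 1 h, and the sources used here state neither strain, sex and age nor whether a number is an animal. A p-value below thus rests on the spread between numbers, which may be technical. Total RNA after exercise had no clear control of its own fraction among the arrays analysed here.

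Of 14 skeletal muscle marker genes 13 were on the array, and none of them lay at the floor, the lowest signal kept (129.5 units), in every sample. Of these 13 genes 1 passed the test used below in polysomal minus total RNA at 6 h, where 9.38% of 3903 tested genes did. It was Myh7, the slow myosin heavy chain, lower by 1.47 on the log2 scale (limma adjusted p = 0.00646). Among the arrays the 2 of number 3 in total RNA at 6 h stood apart. Their signal ratio of 3′ to 5′ probe sets, a measure of RNA integrity, was 9.01 to 11.5 for beta-actin and 9.73 to 11.4 for GAPDH. The beta-actin ratio was 2.54 to 4.48 in polysomal RNA at 6 h, against 1.01 to 1.58 in the other total RNA of that time. The GAPDH ratio overlapped, at 0.0702 to 1.3 in polysomal RNA at 6 h and 0.538 to 1.09 in the other total RNA. Within polysomal RNA at 6 h the lowest GAPDH ratio was in number 2 (0.0702 to 0.561). Numbers 1 and 2 of the polysomal control were low as well, at 0.0742 to 0.511 and 0.0374 to 0.363. The part of these ratios in the differences below was not tested. In whole muscle, fewer cells of a type and less RNA per cell cannot be told apart.

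Of the 9 probe sets 8 passed the filter on dim signals (above the floor on at least 4 arrays), and all 8 of these were above the floor on all 36 arrays. The remaining Nr3c1 probe set, rc_AI137538_at, was below the floor on every array, with a highest signal of 112, and was not tested. In polysomal minus total RNA at 6 h, 2 of the 8 passed limma's test at an adjusted p of 0.05, 1 higher (Nr3c1 rc_AA893618_s_at) and 1 lower (Glul rc_AI232783_s_at). Over all 6707 probe sets tested, 8.77% passed in that comparison, 3.77% higher and 4.99% lower. At 1 h none of the 8 passed, where 0.388% of all probe sets did. By limma's unadjusted p below 0.05 the counts were 4 of 8 at 6 h, against 26.5% of all probe sets, and 5 of 8 at 1 h, against 15.8%. Several probe sets share a gene and the genes were chosen with results known, so these counts are descriptions.

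Nr3c1 gave a clear fraction difference with one of its probe sets and not with the other. Probe set rc_AA893618_s_at, whose suffix marks probes that the manufacturer found shared by several sequences, had signals of 1751, 2678, 1097 and 2031 in polysomal RNA at 6 h (numbers 1 to 4, each the geometric mean of 2 arrays). In total RNA at 6 h it had 465.9, 453.2, 665.8 and 443.2. The lowest polysomal number lay above the highest total one. On the log2 scale polysomal RNA averaged 10.81 ± 0.54 and total RNA 8.96 ± 0.28 (SD, n = 4 each). Polysomal minus total was 1.85 (SE 0.31), a 3.6-fold higher signal, with a limma adjusted p of 0.00403. Number 3 of total RNA, the one with the high 3′ to 5′ ratios, held the highest of the 4 total values. Without it the difference was 1.99 (adjusted p = 0.00526). Within numbers 1 and 2 it was 2.24, and within numbers 3 and 4, whose titles are written in another form, it was 1.46 and did not pass (adjusted p = 0.0883). Over the 28 alternatives tried the adjusted p ran from 1.9e-05 to 0.0883.

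At 1 h the same probe set had signals of 1687 and 1402 in polysomal RNA and 826.5 and 785.8 in total RNA. Both polysomal numbers again lay above both total ones, and the difference of 0.93 (SE 0.44) did not pass (limma adjusted p = 0.313). The change of the fraction difference between the times, 0.92 (SE 0.53, 6 h minus 1 h), did not pass either (adjusted p = 0.849). Its interval of -0.22 to 2.05 leaves a wide range. For that change no probe set of the array passed in limma (0% of 6707), and 372 had an unadjusted p below 0.05.

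Probe set M14053_at, the other tested probe set of Nr3c1, was dim, with signals of 149.6 to 356.7 over all arrays. It had 251.9, 210.7, 186.4 and 211.1 in polysomal RNA at 6 h and 269.4, 269, 185.3 and 241.3 in total RNA. The groups overlapped, and the difference was -0.16 (SE 0.15, limma adjusted p = 0.515). Its interval of -0.48 to 0.16 does not reach the 1.85 found with rc_AA893618_s_at. That holds for the signal of a dim probe set near the floor of 129.5 and sets no limit on the transcript. At 1 h M14053_at had 239.2 and 196.9 in polysomal RNA against 328.4 and 285.6 in total RNA. The difference of -0.50 (SE 0.21) did not pass (limma adjusted p = 0.272). Of the 2 probe sets at both times, the estimate at 6 h with rc_AA893618_s_at is the only one that passed. The sign of M14053_at at 6 h was not stable, since it turned to 0.11 under quantile normalization.

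The disagreement was measured within arrays as the log2 ratio of rc_AA893618_s_at to M14053_at. It averaged 3.07 ± 0.49 in polysomal RNA at 6 h and 1.07 ± 0.52 in total RNA (SD, n = 4 each). The ratio ran from 2.56 to 3.67 in polysomal numbers and from 0.75 to 1.85 in total ones, without overlap. The highest total value was that of number 3, whose arrays stood apart in RNA integrity, and the other total numbers ran from 0.75 to 0.88. Beta-actin 3′ to 5′ ratios also differed between the fractions, as given above. The part of RNA integrity in this comparison was not tested. At 6 h the log2 ratio of the 2 probe sets was higher in polysomal RNA by 2.01, and at 1 h it was higher by 1.43. The ratio was taken after the probe sets were seen to differ, so it is a description without a test. The ratio averaged 2.75 in the control titled 1hr polysome and 3.34 in the polysomal control, nearer to the exercised polysomal groups than to the total ones. A ratio between probe sets is no level of the transcript, and which receptor sequences each probe set targets was not examined here.

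Exercise itself was not accompanied by a called change of Nr3c1 on polysomes. With rc_AA893618_s_at the polysomal control had 2449, 2917, 1037 and 1823, overlapping the 6 h polysomal signals given above, and in both groups number 2 was highest and number 3 lowest. Polysomal RNA at 6 h minus the polysomal control was -0.09 (SE 0.31), with an interval of -0.75 to 0.56. That interval does not use the pairing of these groups by number. The exercised muscle was higher in 2 of 4 same-numbered pairs, and the difference did not pass in limma with the number as a block. The control titled 1hr polysome had 1829 and 1255, and polysomal RNA at 1 h minus that control was 0.02 (SE 0.44), with an interval of -0.91 to 0.95. The arrays of number 2 of that control disagreed, at 2021 and 778.8. In total RNA, 6 h minus 1 h was -0.69 (SE 0.38, limma adjusted p = 0.665), and the numbers of the times did not overlap. Ordered by geometric mean, rc_AA893618_s_at was at 1920 in the polysomal control, 1800 in polysomal RNA at 6 h, 1540 in polysomal RNA at 1 h and 1520 in the control titled 1hr polysome, neighbours that did not differ beyond their spread. Total RNA followed at 806 at 1 h and 500 at 6 h.

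**Figure D1:**
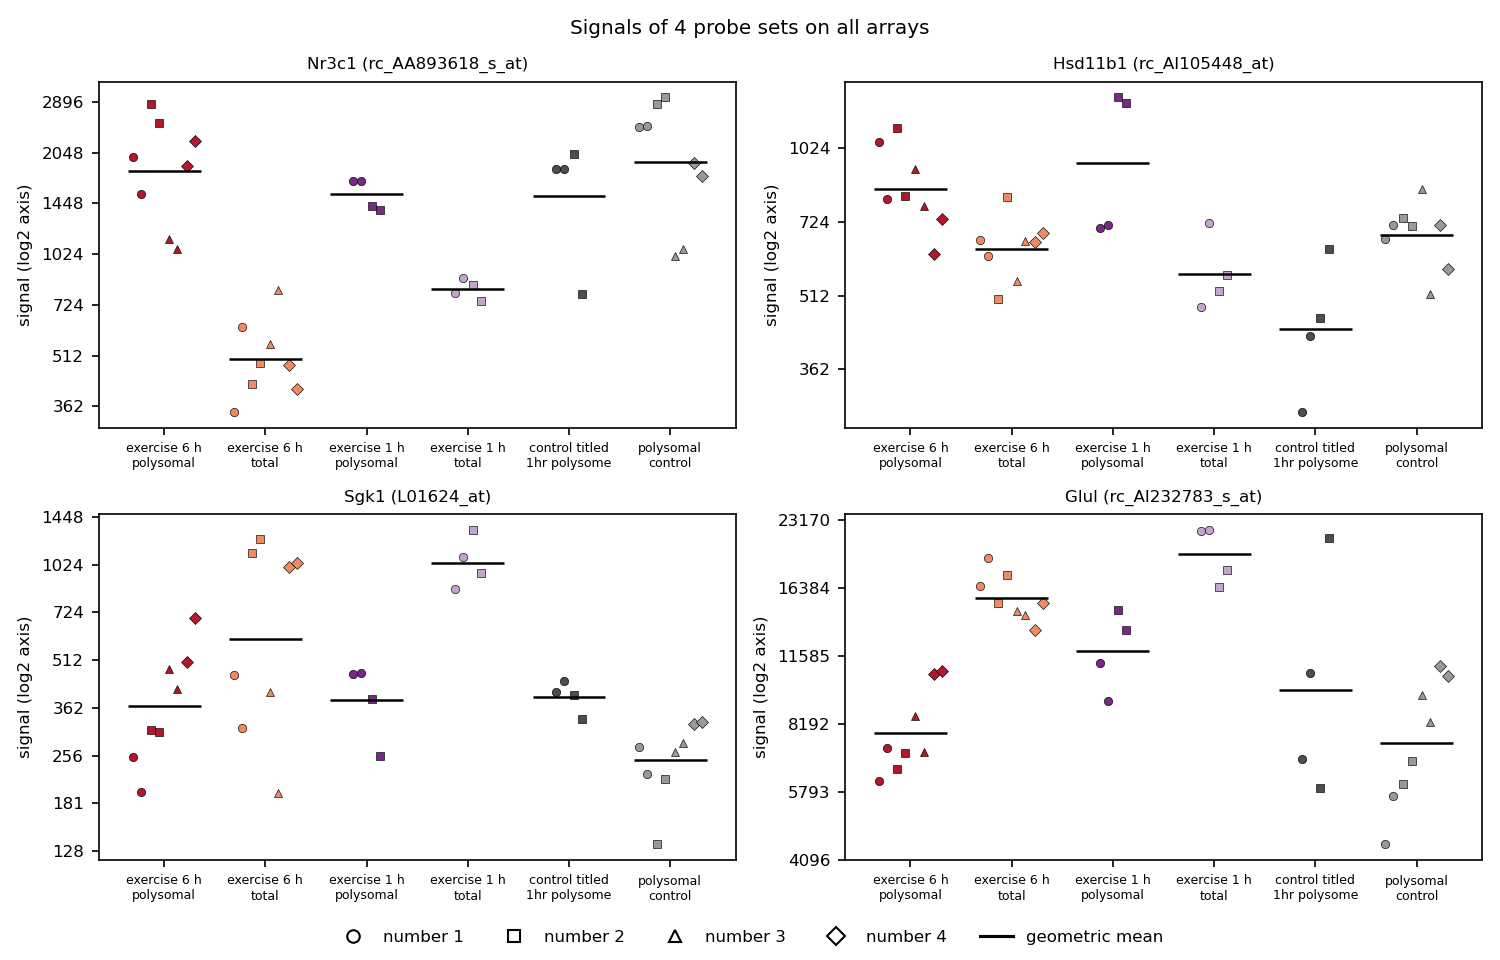
Signal of 1 probe set of each gene (log2 axis, array units) on all 36 arrays, by group, with marker shapes for the number and a bar at the geometric mean. At 6 h Nr3c1 rc_AA893618_s_at is higher in polysomal than in total RNA (geometric means 1800 in polysomal and 500 in total RNA). Glul rc_AI232783_s_at is lower (7810 in polysomal and 15600 in total RNA), and Sgk1 is spread widely in total RNA. The other tested probe sets of Nr3c1 and Glul did not pass in that comparison.

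Hsd11b1, the hormone-regenerating enzyme, had somewhat higher signals in polysomal than in total RNA at both times, and neither difference passed. In polysomal RNA at 6 h its probe set rc_AI105448_at had 920.5, 957.8, 851.8 and 676.4, and in total RNA 640.2, 639.2, 603.4 and 672.4. All 4 polysomal numbers lay above all 4 total ones, the nearest by a few units. The difference was 0.40 (SE 0.18, limma adjusted p = 0.171), with an interval of 0.02 to 0.79. At 1 h it had 708.4 and 1280 in polysomal RNA against 590.4 and 543.1 in total RNA, a difference of 0.75 (SE 0.26, adjusted p = 0.167).

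After exercise, polysomal Hsd11b1 was set against the controls. At 1 h it exceeded the control titled 1hr polysome, which had 354.4 and 542.1, by 1.12 (SE 0.26), a 2.17-fold higher signal. The unadjusted p of 0.00058 was the 4th smallest of the 6707, and the limma adjusted p of 0.646 did not pass. No probe set of the array passed in that comparison with limma (0%), and 299 had an unadjusted p below 0.05. The value rests on numbers that disagree, since number 2 of polysomal RNA at 1 h (1280) lay well above number 1 (708.4). Without number 1 the excess was 1.55 and passed (adjusted p = 0.0134), and polysomal minus total RNA at 1 h was 1.18 and passed too (adjusted p = 0.041). Without number 2 the excess was 0.69 (adjusted p = 1) and the fraction difference 0.32 (adjusted p = 0.73). Each of these values rests on a single polysomal number, which is then assumed to vary like the other groups. Over the alternatives tried the adjusted p ran from 0.0134 to 1 for the excess over that control and from 0.041 to 0.73 for the fraction difference. Set against the polysomal control in place of the control titled 1hr polysome, the excess was 0.49.

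At 6 h polysomal Hsd11b1 was 0.31 above the polysomal control (SE 0.18, limma adjusted p = 1), which had 690.2, 724.8, 660.5 and 643.2. The groups overlapped through number 4 of the exercised muscle. Numbers pair these groups, and the exercised muscle was higher in 4 of 4 same-numbered pairs, with an adjusted p of 0.858 in limma with the number as a block. The control titled 1hr polysome lay 0.63 below the polysomal control (SE 0.22, adjusted p = 0.842). No probe set of the array passed between the controls (0%, with 367 at an unadjusted p below 0.05 in limma). By geometric mean Hsd11b1 was at 952 in polysomal RNA at 1 h, 844 in polysomal RNA at 6 h, 679 in the polysomal control, 638 in total RNA at 6 h, 566 in total RNA at 1 h and 438 in the control titled 1hr polysome. The neighbours at each end of this order did not differ beyond their spread. In fat, Hsd11b1 is also an abundant enzyme, and the summed signal of the 7 adipocyte markers on the array was 7090 to 12700 in polysomal RNA at 6 h and 7350 to 9860 in total RNA. At 1 h that sum was 6940 to 10500 in polysomal RNA, 8050 to 8340 in total RNA and 7920 to 8050 in the control titled 1hr polysome. Plin1, the fat droplet coat protein of adipocytes, was at the floor in every sample. Of 6 tested adipocyte markers 1 passed in polysomal minus total RNA at 6 h, where 9.38% of 3903 tested genes did. It was Fabp4, an adipocyte fatty acid carrier, higher by 1.39 (limma adjusted p = 0.0378), with a pass in 16 of 28 alternatives. The summed signal of the 6 fibroblast markers was 41400 to 47200 in polysomal RNA at 1 h, 22500 to 37400 in total RNA at 1 h and 20900 to 25900 in the control titled 1hr polysome. That of the 6 macrophage markers was 4530 to 7880 in polysomal RNA at 1 h, 3710 to 3830 in total RNA and 3000 to 3060 in that control. Singly, 3 of 6 tested fibroblast markers were above 0 in polysomal minus total RNA at 1 h (median 0.09). Against the control titled 1hr polysome 6 of 6 were (0.69). Of 5 tested macrophage markers 3 were above 0 against total RNA (0.45) and 4 against that control (0.38). The part of these cells in the Hsd11b1 values was not tested.

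Sgk1 had lower mean signals in polysomal than in total RNA at both times, neither difference passed, and numbers of total RNA at 6 h varied widely. In polysomal RNA at 6 h its probe set L01624_at had 223, 305.6, 447.1 and 592.5. In total RNA at 6 h it had 379.2, 1173, 281.1 and 1022, so numbers 2 and 4 were high and numbers 1 and 3 lay within the polysomal range. The difference was -0.71 (SE 0.42, limma adjusted p = 0.294), with an interval of -1.60 to 0.19. It was -1.35 within numbers 1 and 2 (adjusted p = 0.0879) and -0.058 within numbers 3 and 4 (adjusted p = 0.983), the ends of the range over all alternatives. Leaving out single numbers of total RNA gave -1.07 without number 3, -0.92 without number 1, -0.45 without number 4 and -0.38 without number 2, none of which passed. At 1 h polysomal RNA had 464.4 and 314.3 against 964.3 and 1130 in total RNA. These numbers did not overlap, yet the difference of -1.45 (SE 0.59) did not pass (adjusted p = 0.247).

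Against the polysomal control, which had 247.1, 170.6, 271.9 and 325.1, polysomal Sgk1 at 6 h was 0.57 higher (SE 0.42, limma adjusted p = 1). With the control titled 1hr polysome (422.6 and 364.9) in its place the value was -0.10, so its direction depends on the control. Over same-numbered pairs with the polysomal control, the exercised muscle was higher in 3 of 4. With the number as a block the limma adjusted p was 0.991. At 1 h polysomal RNA differed from the control titled 1hr polysome by -0.04 (SE 0.59). Total RNA at 6 h minus total RNA at 1 h was -0.80 (SE 0.51, adjusted p = 0.70), and the numbers of the times overlapped. By geometric mean Sgk1 was at 1040 in total RNA at 1 h, 598 in total RNA at 6 h, 393 in the control titled 1hr polysome, 382 in polysomal RNA at 1 h, 367 in polysomal RNA at 6 h and 247 in the polysomal control. No neighbours in this order differed beyond their spread.

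Glul was bright on every array except with rc_AA852004_s_at, whose lowest signal was 420.8, and the 4 probe sets of Glul did not behave alike. Of these, rc_AI232783_s_at and rc_AA852004_s_at carry the suffix for shared probes that was described for Nr3c1. Probe set rc_AI232783_s_at had 6649, 6771, 7775 and 10630 in polysomal RNA at 6 h and 17790, 16290, 14390 and 14150 in total RNA. Every total number lay above every polysomal one. On the log2 scale polysomal RNA averaged 12.93 ± 0.31 and total RNA 13.93 ± 0.16 (SD, n = 4 each). The difference of -0.997 (SE 0.230), a 2.0-fold lower signal, passed with a limma adjusted p of 0.0176. Without number 3 of total RNA it was -1.04 (adjusted p = 0.0249). It was -1.34 within numbers 1 and 2, -0.65 within numbers 3 and 4 (adjusted p = 0.18), and -0.84 when arrays were scaled to their 75th percentile (adjusted p = 0.0561), the last 2 no longer passing. Over the 28 alternatives tried the adjusted p ran from 0.00493 to 0.18. At 1 h it had 10130 and 13920 in polysomal RNA against 22010 and 17200 in total RNA, also without overlap, and the difference of -0.71 (SE 0.32) did not pass (adjusted p = 0.30). The change between the times was -0.28 (SE 0.40, 6 h minus 1 h, adjusted p = 0.914).

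The other Glul probe sets gave smaller or opposite differences at 6 h. The brightest, M91652complete_seq_g_at, had 7516, 8225, 7951 and 12490 in polysomal RNA and 13300, 14110, 11870 and 15020 in total RNA, with number 4 of polysomal RNA inside the total range. Its difference was -0.61 (SE 0.25, limma adjusted p = 0.128). M91652complete_seq_at, named for the same sequence, had 6916, 8549, 7910 and 10490 in polysomal RNA and 9285, 7057, 5847 and 5640 in total RNA, a difference of 0.30 (SE 0.23, adjusted p = 0.413). The groups overlapped for both. Probe set rc_AA852004_s_at was the least stable, at 1234, 2418, 1052 and 2229 in polysomal RNA against 5247, 4745, 805.7 and 470.9 in total RNA. Here numbers 1 and 2 of total RNA were high and numbers 3 and 4 low, and the difference of -0.11 (SE 0.65, adjusted p = 0.929) averages values of opposite direction.

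**Figure D2:**
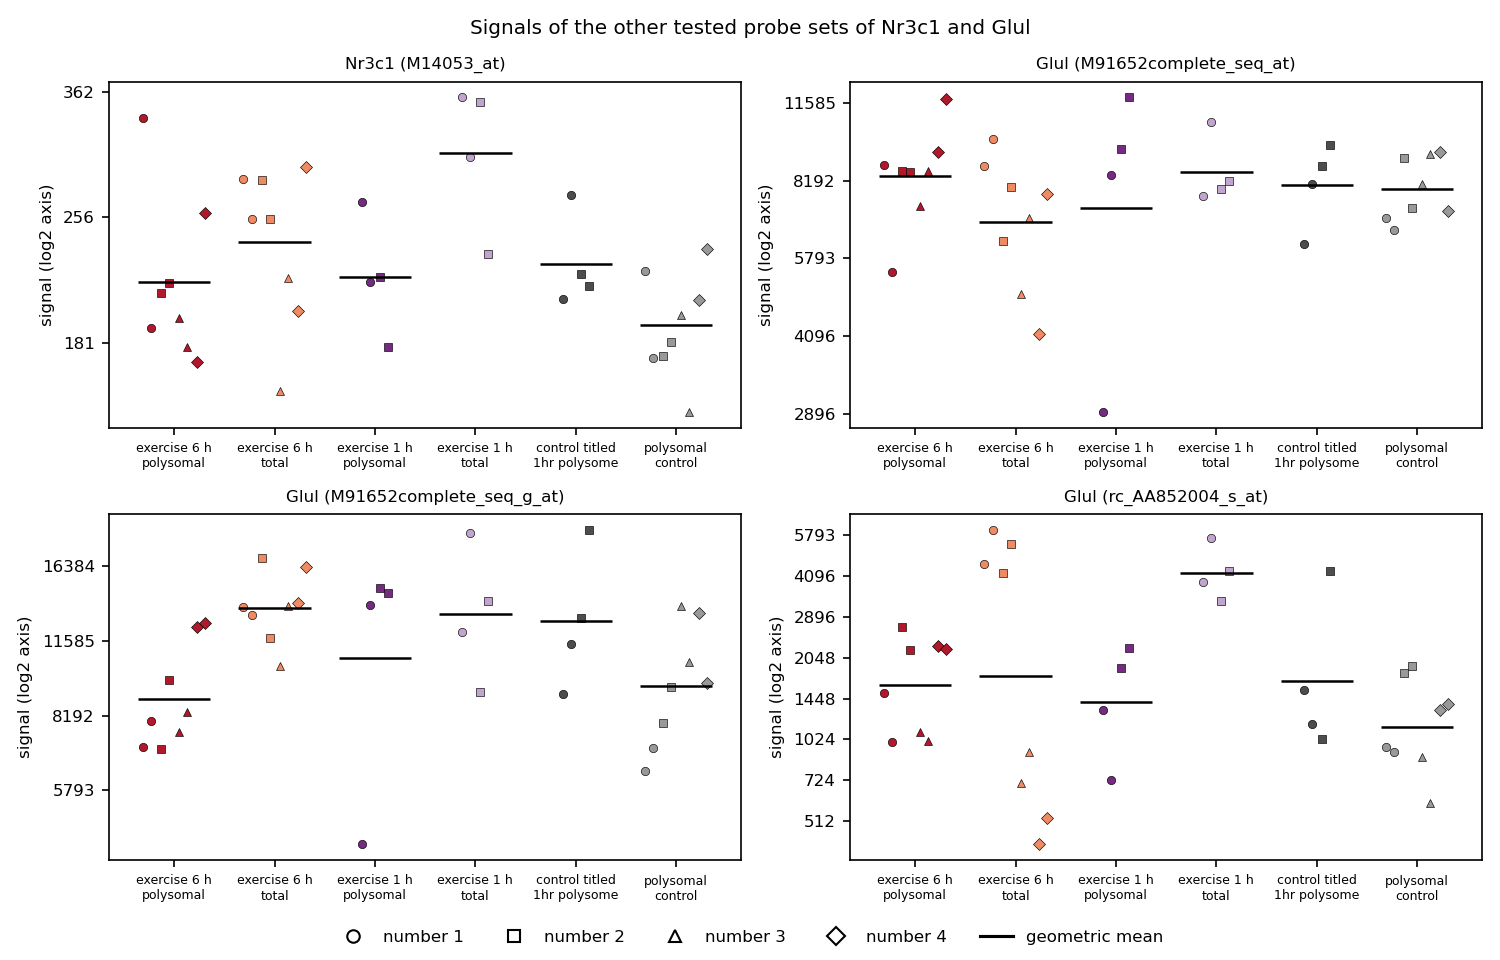
Signal (log2 axis, array units) of the other tested probe sets of Nr3c1 and Glul on all 36 arrays, by group, with marker shapes for the number and a bar at the geometric mean. M14053_at overlaps between fractions at 6 h, and rc_AA852004_s_at splits total RNA at 6 h into numbers 1 and 2 (5247 and 4745) and numbers 3 and 4 (805.7 and 470.9).

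At 1 h none of these 3 Glul probe sets passed. The difference was -0.29 for M91652complete_seq_g_at, -0.23 for M91652complete_seq_at and -1.57 for rc_AA852004_s_at, with SEs of 0.35, 0.32 and 0.92. Within arrays, the log2 ratio of rc_AI232783_s_at to M91652complete_seq_at averaged -0.10 ± 0.16 in polysomal RNA at 6 h and 1.19 ± 0.18 in total RNA (SD, n = 4 each), and the groups did not overlap. Polysomal minus total was -1.29 for this ratio at 6 h and -0.48 at 1 h. The pair was chosen from the 4 probe sets after their values were seen, so the ratio is a description without a test.

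No Glul probe set passed in polysomal RNA against its controls, and the sizes differed between probe sets. With rc_AI232783_s_at polysomal RNA at 6 h exceeded the polysomal control, which had 5013, 6394, 8842 and 10710, by 0.07 (SE 0.23), with an interval of -0.42 to 0.56. In both groups number 1 was lowest and number 4 highest. The exercised muscle was higher in 2 of 4 same-numbered pairs. With rc_AA852004_s_at polysomal RNA at 6 h was 0.51 (SE 0.65) above the polysomal control, which had 940.4, 1855, 723.5 and 1345, and was higher in 4 of 4 pairs. That difference did not pass without or with the number as a block (limma adjusted p = 1 in both), and its interval was -0.88 to 1.90. The difference was 0.09 with M91652complete_seq_at (higher in 3 of 4 pairs) and -0.08 with M91652complete_seq_g_at (2 of 4). At 1 h with rc_AI232783_s_at polysomal RNA was 0.28 (SE 0.32) above the control titled 1hr polysome, which had 8520 and 11160. The arrays of number 2 of that control again disagreed, at 5909 and 21093. Polysomal RNA at 6 h minus polysomal RNA at 1 h was -0.60 (SE 0.28, limma adjusted p = 0.909), a comparison in which no probe set of the array passed (0%, with 366 at an unadjusted p below 0.05). By geometric mean rc_AI232783_s_at was at 19500 in total RNA at 1 h, 15600 in total RNA at 6 h, 11900 in polysomal RNA at 1 h, 9750 in the control titled 1hr polysome, 7810 in polysomal RNA at 6 h and 7420 in the polysomal control. Polysomal RNA at 1 h and the control titled 1hr polysome did not differ beyond their spread, nor did polysomal RNA at 6 h and the polysomal control.

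**Figure D3:**
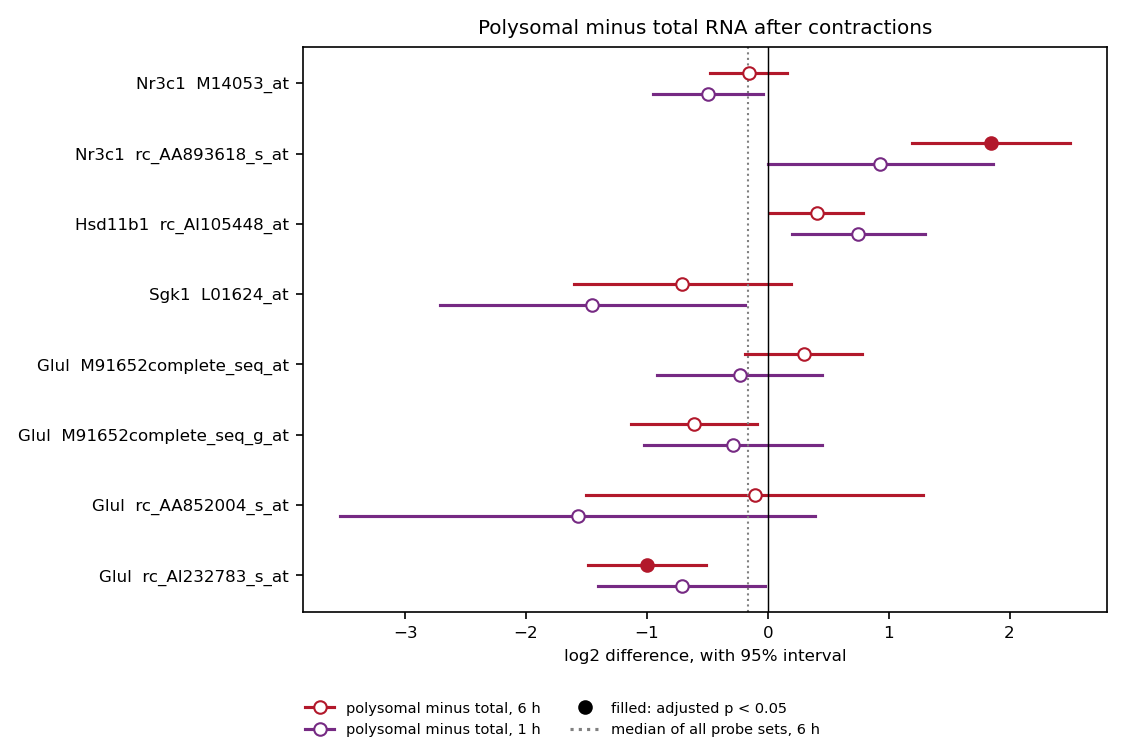
Log2 difference of polysomal minus total RNA for the 8 tested probe sets at 6 h (red) and 1 h (purple), with 95% intervals. Filled points passed the adjusted threshold, Nr3c1 rc_AA893618_s_at at 1.85 and Glul rc_AI232783_s_at at -0.997, and the dotted line is the median of all probe sets at 6 h, -0.16.

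The fraction differences have to be read beside a shift of the whole array. The median of all probe sets in polysomal minus total RNA at 6 h was -0.16 on the log2 scale, -0.05 after quantile normalization and -0.06 after scaling to the 75th percentile. Relative to the median of -0.16, Nr3c1 rc_AA893618_s_at stood at 2.01 and Glul rc_AI232783_s_at at -0.83. Nr3c1 M14053_at stood at 0.0045 and Sgk1 at -0.54 on the same scale. The sign of M14053_at turned to 0.11 under quantile normalization, and that of Glul rc_AA852004_s_at to 0.05 under scaling to the 75th percentile. The other 6 tested probe sets kept their direction under both scalings.

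In the exercise comparisons none of the 8 tested probe sets passed. Over all probe sets, 0.343% passed in polysomal RNA at 6 h minus the polysomal control. In total RNA at 6 h minus 1 h 0.0596% passed, and again none of the 8. By limma's unadjusted p below 0.05 the array held 380 probe sets in the polysomal comparison and 517 in the total RNA comparison.

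**Figure D4:**
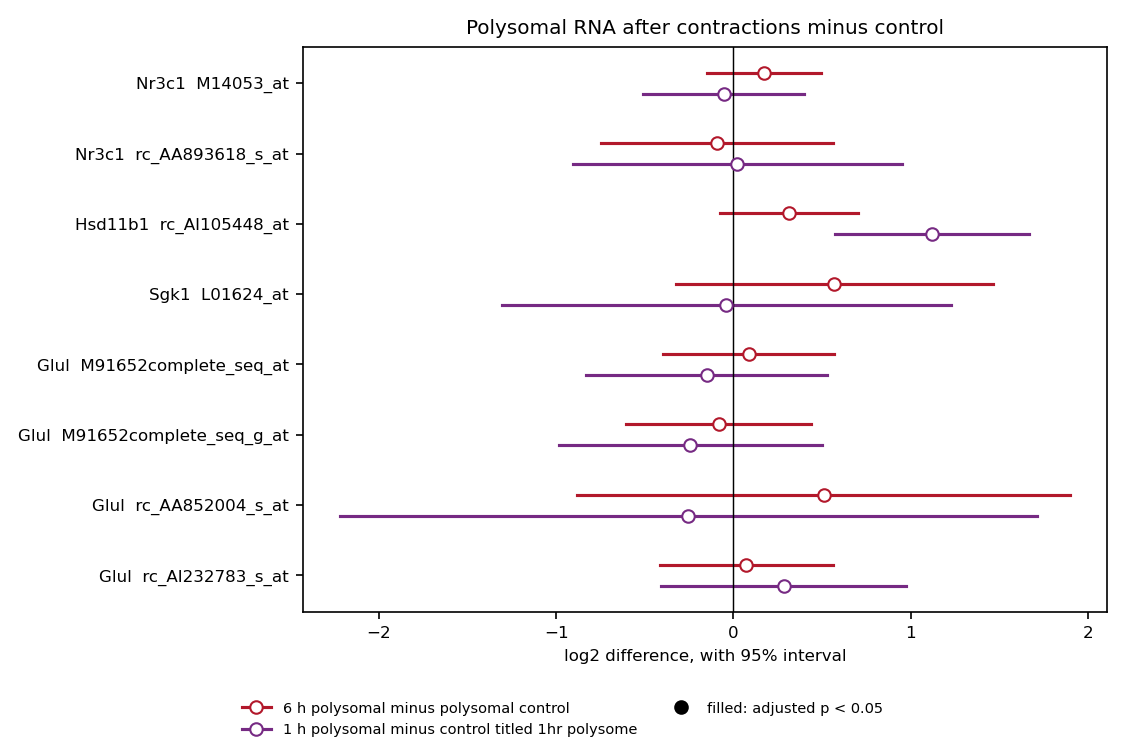
Log2 difference of polysomal RNA after contractions minus its control for the 8 tested probe sets, with 95% intervals, at 6 h against the polysomal control (red) and at 1 h against the control titled 1hr polysome (purple). No point passed the adjusted threshold, and Hsd11b1 at 1 h lies farthest from 0, at 1.12.

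The genes whose pattern was most like each member were taken by Pearson correlation over the 18 number means of all groups, between the brightest probe sets of the genes. These correlations are descriptions, since the points share the groups and the array scaling. For Nr3c1 they were Rbm39, a splicing factor (r = 0.926), Shank2, a synaptic scaffold protein (0.914), and Rab14, a small GTPase of endosomes (0.906). Rab14 averaged 1420 in polysomal RNA at 6 h against 261 in total RNA. That direction is the one of rc_AA893618_s_at, the Nr3c1 probe set by whose pattern Rab14 was picked, so it adds no support. For Hsd11b1 they were Cd63, a lysosome membrane protein (0.789), S100a10, a partner of annexin A2 (0.785), and the cytokine Il18 (0.754). For Sgk1 they were the immediate early genes Jun (0.868), Ccn1 (0.806) and Dusp1 (0.798). Jun averaged 3220 in polysomal RNA at 6 h against 6510 in total RNA, and 3880 in polysomal RNA at 1 h against 11200 in total RNA. For Glul, represented by M91652complete_seq_g_at, they were the myelin protein Pmp22 (0.812), the 14-3-3 protein Ywhab (0.807) and Th, tyrosine hydroxylase (0.771).

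Around these members, 6 lists of genes of the pathway were followed, each gene by its brightest tested probe set. Over all 3903 tested genes 9.38% passed in polysomal minus total RNA at 6 h, 0.333% at 1 h and 0.384% in polysomal RNA at 6 h minus the polysomal control, all by limma's adjusted p. The median gene stood at -0.14 in polysomal minus total RNA at 6 h. By that measure no gene of the 6 lists passed in polysomal minus total RNA at 1 h or in polysomal RNA at 1 h minus the control titled 1hr polysome.

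Of 11 tested receptor chaperones and cochaperones 1 fell and none rose in polysomal minus total RNA at 6 h, with a list median of -0.19. The 1 was Hspa4, an HSP110-type nucleotide exchange factor, which averaged 329 in polysomal RNA and 929 in total RNA (difference -1.50, SE 0.43, limma adjusted p = 0.044). It passed in 10 of 28 alternatives and under neither other scaling. In polysomal RNA at 6 h minus the polysomal control, Hspa1a, the inducible HSP70, rose by 4.92 (SE 0.51, adjusted p = 0.000631), with averages of 19400 in exercised muscle and 641 in the control. It passed in 26 of 28 alternatives, all but the fits restricted to 2 of the 4 numbers.

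Of 14 tested receptor partners and relatives none passed in polysomal minus total RNA at 6 h, and the list median was -0.33. An unadjusted limma p below 0.05 was found for 5 of 14, against 26.5% of all probe sets. In polysomal RNA at 6 h minus the polysomal control, Fos, a subunit of the AP-1 factor with which the receptor interacts, rose by 2.94 (SE 0.58, limma adjusted p = 0.043). It averaged 12900 in exercised muscle and 1690 in the control, and passed in 11 of 28 alternatives. Of 8 tested genes of steroid metabolism, Hsd11b1 among them, none passed in either comparison. By an unadjusted limma p below 0.05 the counts were 4 and 0, against 26.5% and 5.67% of all probe sets.

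Of 31 tested genes known to be induced by glucocorticoids, Sgk1 and Glul among them, 2 rose and none fell in polysomal minus total RNA at 6 h. In this count Glul stands by M91652complete_seq_g_at, its brightest probe set. Its probe set rc_AI232783_s_at did pass as lower (-0.997, limma adjusted p = 0.0176). With 16 of 31 above 0 the list median was 0.13, against -0.14 over all genes. Nfkbia, the inhibitor of NF-kappa-B, averaged 2070 in polysomal RNA and 727 in total RNA (difference 1.51, SE 0.26, limma adjusted p = 0.00463). Igfbp3, a carrier of insulin-like growth factors, averaged 1110 in polysomal RNA and 400 in total RNA (1.47, SE 0.28, adjusted p = 0.00764), but only 1 of its 2 tested probe sets pointed that way. Both passed in 27 of 28 alternatives. Macrophages, with 6 markers on the array, are cells in which NF-kappa-B genes are active. The summed signal of these markers was 4690 to 14700 in polysomal RNA at 6 h and 3210 to 6230 in total RNA. Singly, 2 of the 5 tested macrophage markers were above 0 in that comparison, with a median of -0.34. The part of these cells was not tested. Counting any probe set of a gene, 6 of the 31 genes passed, Glul among them, where 11.4% of all 3903 genes did by that count. In polysomal RNA at 6 h minus the polysomal control 1 of 31 rose, Errfi1, a feedback inhibitor of the EGF receptor, by 1.87 (SE 0.32, adjusted p = 0.02), with 2 of its 3 probe sets in that direction and a pass in 18 of 28 alternatives. The list median there was -0.06, against -0.04 over all genes.

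Of 16 tested regulators and substrates of the SGK1 kinase, 2 rose and 1 fell in polysomal minus total RNA at 6 h, with a list median of -0.05. Gsk3b, a glycogen synthase kinase, averaged 1620 in polysomal RNA and 520 in total RNA (difference 1.64, SE 0.33, limma adjusted p = 0.0103). Pdpk1, the kinase that activates SGK1, averaged 1140 in polysomal RNA and 563 in total RNA (1.02, SE 0.26, adjusted p = 0.0271). Rictor, a subunit of the mTORC2 complex that also phosphorylates SGK1, averaged 199 in polysomal RNA and 411 in total RNA (-1.05, SE 0.20, adjusted p = 0.00671). They passed in 27, 23 and 26 of 28 alternatives. Of 20 tested genes of glutamine and amino acid metabolism none passed by the brightest probe set. An unadjusted limma p below 0.05 was found for 7 of 20, against 26.5% of all probe sets. By any probe set 3 passed (11.4% of all genes did), Glul among them through rc_AI232783_s_at. Of the 20 genes 2 were above 0, with a list median of -0.21 against -0.14 over all genes.

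**Figure D5:**
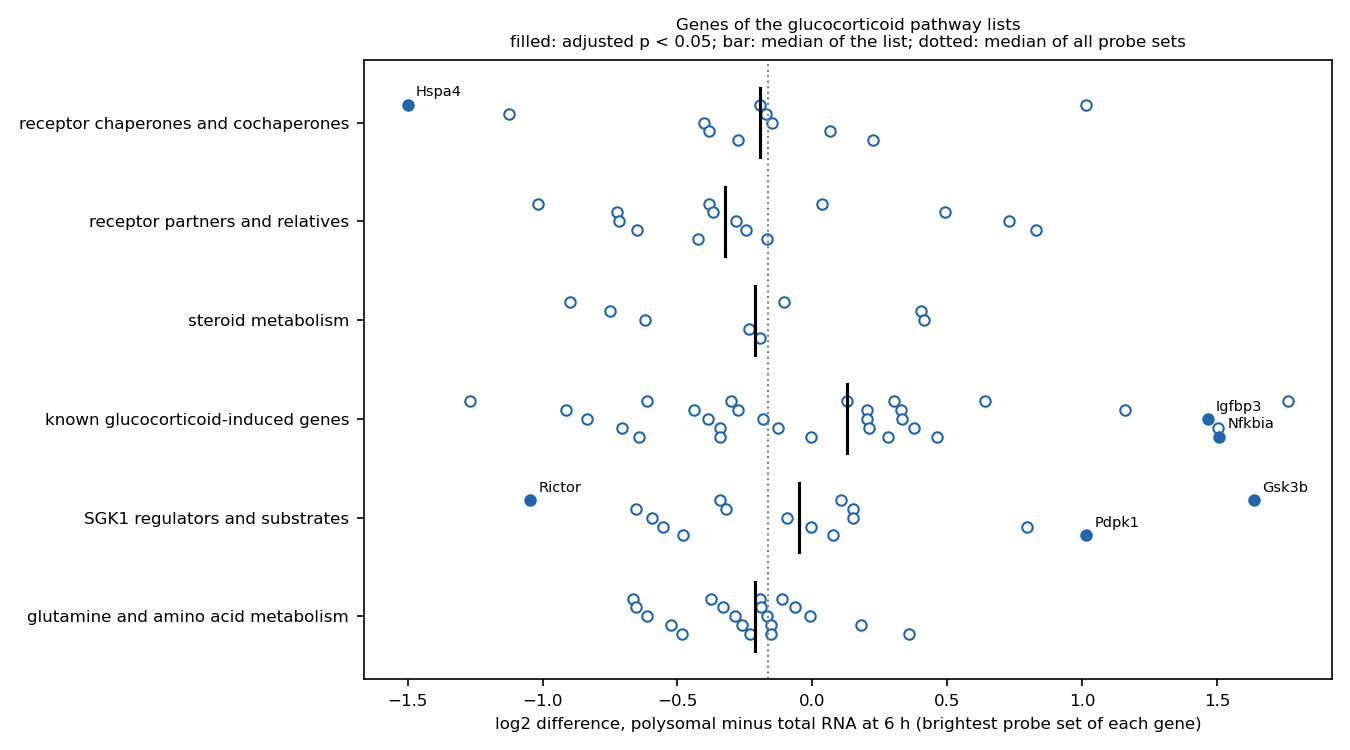
Log2 difference of polysomal minus total RNA at 6 h for each tested gene of the 6 lists, by brightest probe set, with a bar at the list median and a dotted line at the median of all probe sets, -0.16. Filled points passed the adjusted threshold: Nfkbia, Igfbp3, Gsk3b and Pdpk1 higher, Hspa4 and Rictor lower.

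The receptor binds DNA elements that hold the half-site AGAACA. In RefSeq promoter windows of the GRCr8 assembly, from 250 bases before to 50 after a gene's start, this half-site (either strand, TGTTCT on the other) was in none of the 7 windows of Nr3c1, Sgk1 and Glul, and in 20.7% of all 33469 windows. This says only that these letters are not in these short windows.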

How the data were processed

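The values are intensity signals that the authors deposited in 1 table of 36 arrays, linear and scaled before deposit, since trimmed means (2% off each end) ran from 788 to 798.1 over arrays. The software behind the signals is not given in the sources used here. After 59 control probe sets were left out, signals under 129.5, the 40th percentile of the table, were raised to it as a floor and log2 was taken. The 2 arrays of a number were averaged, since the labels do not say whether they are separate muscles (correlation of such arrays 0.914 to 0.984). The 6707 of 8740 probe sets that exceeded the floor on 4 arrays or more were fitted with limma 3.58.1 in R 4.3.3 as 1 model over 6 groups (18 replicates, 12 residual degrees of freedom), with 8 two-sided contrasts and Benjamini-Hochberg adjustment over all 6707 at a threshold of 0.05. The number of arrays limits the precision. Intervals are 95%.

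Gene symbols came from the platform annotation, updated through Entrez identifiers (6994 of 7006 probe sets with 1 symbol). The members and gene lists were chosen with earlier results of these data known. All member probe sets are named. From each list, genes are named whose brightest probe set passed in polysomal minus total RNA at 6 h or in polysomal RNA against its control, at most 4 per list and comparison, and for each member the 3 most alike genes. Adipocyte and other marker genes were named after their values were seen.

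Same-numbered samples of polysomal RNA at 6 h and the polysomal control deviated together (correlations 0.432 to 0.538 over 4 pairs), so numbers pair these groups. Of polysomal and total RNA at 6 h the correlations were positive but lower, at 0.0726 to 0.248. Polysomal numbers 1, 3 and 4 correlated best with the total RNA of their own number, and number 2 with number 1. Whether those numbers are pairs was not settled, and the main fit did not take them as pairs. Alternatives covered scaling, floor, filter, use of arrays, the replicate block, the samples in the fit, the control, and each number left out. The split of the 6 h numbers and the ratios between probe sets were added after the data were seen.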

Additional observations from a re-analysis of the deposited data

Results flagged for a closer look

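In total RNA at 6 h, number 3 of Nr3c1 rc_AA893618_s_at (665.8) lay far above the other numbers (443.2 to 465.9). Its gap to the nearest was 0.878 of the whole range, beyond Dixon's 95% critical value for 4 samples. Of 24 groups of 4 numbers tested over the members 1 was marked, and chance marks about 1 in 20. The same number held 3′ to 5′ ratios of 9.01 to 11.5 for beta-actin, and the part of RNA integrity in the value was not tested. Without number 3 the polysomal minus total difference was 1.99 in place of 1.85.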

How the results depend on the processing

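The limma call of Nr3c1 rc_AA893618_s_at in polysomal minus total RNA at 6 h held in 27 of 28 alternatives (1.46 to 2.24) and was lost with numbers 3 and 4 only (1.46). That of Glul rc_AI232783_s_at held in 25 of 28 and was lost at the 75th percentile scaling (-0.84), with numbers 3 and 4 only (-0.65) and without number 2 of polysomal RNA (adjusted p = 0.0594). Leaving out single numbers gave -1.15 to -0.92 for it. With the replicate block the adjusted p was 0.00579 for Nr3c1 and 0.0207 for Glul, and no call of a member or list gene named here changed. The 2 calls at 6 h became 1 at the 75th percentile scaling, 0 with numbers 3 and 4 only, and 1 to 2 without single numbers. A floor at the 60th percentile (315.8) lies above most signals of Nr3c1 M14053_at, and 1 call then appeared in polysomal minus total RNA at 1 h, in its change between the times and in total RNA at 6 h minus 1 h. Without single numbers there were 0 to 1 calls in polysomal minus total RNA at 1 h and in polysomal RNA at 1 h minus its control, both through Hsd11b1. None of the differences that turned sign passed under that alternative. At 6 h Nr3c1 M14053_at was 0.11 with quantile normalization and 0.012 with the higher floor, Glul M91652complete_seq_at was -0.0741 with numbers 1 and 2 only, and Glul rc_AA852004_s_at was 0.0475 at the 75th percentile, 1.31 with numbers 3 and 4 only and -0.74 to 0.42 without single numbers. At 1 h, without single numbers, M91652complete_seq_at was -0.78 to 0.32 and M91652complete_seq_g_at -0.74 to 0.16. Sgk1 at 6 h was -0.10 against the other control. Polysomal minus total RNA at 6 h for the Nr3c1 probe set ratio was 1.81 to 2.27 without single numbers, against 2.01 with all of them. The causes were not tested.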
